A study of Mus musculus with 6 samples.

Results

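Immediate-early genes are transcribed within minutes of a stimulus by factors that the cell already holds, with no need for newly made protein, and most of their messenger RNAs decay quickly. The best known encode the FOS and JUN proteins of the AP-1 factor. The 9 genes described here are immediate-early genes outside AP-1, taken by symbol from the 29587 gene rows of the deposited table. Egr1, Egr2, Klf4, Nr4a1 and Myc encode transcription factors, Ier2 and Ier3 small early-response proteins, Dusp1 a phosphatase of mitogen-activated protein (MAP) kinases, and Zfp36 a protein that drives messenger RNA decay. Growth factors, mechanical load, parathyroid hormone and ultraviolet light induce such genes in osteoblasts or other cells, through the ERK kinases with the serum response factor SRF, through the cyclic AMP factor CREB, and through the stress kinases JNK and p38.

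The RNA came from osteoblasts killed with ultraviolet light, in 3 libraries from old mice and 3 from young mice. Per the labels, adherent cells grown out of bone fragments were passaged, kept in osteogenic medium for 3 days and exposed to ultraviolet light for 0.5 h, after which over 90% took up Trypan Blue, a dye that enters dead cells. Both groups shared these steps, and no genetic change is named. The age in months, strain and sex of the mice, and the time from ultraviolet exposure to RNA extraction,, could not be found in the sources used here. Nothing in the labels ties a library to its own animal or culture, so each p-value covers the spread among 6 libraries, part of which may be technical. Values are RPKM, read counts scaled by gene length and by the total reads of the library.

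Depth was 75456146 to 84535939 recovered reads in the old and 64881180 to 82917726 in the young libraries. Col1a1, the type I collagen gene of osteoblasts, stood at 1492 to 1553 RPKM in old and 1062 to 1829 RPKM in young libraries, while Alpl and Bglap, markers of mineralising osteoblasts, stayed under 1 RPKM in all 6. Of 7 tested osteoblast markers limma called 2, against 1.57% of all tested genes. The secreted matrix protein gene Spp1 was higher, at 691 to 811 RPKM in old and 233 to 376 RPKM in young libraries. The osteoblast factor Sp7 was lower, at 4.88 to 4.94 RPKM in old and 7.89 to 9.02 RPKM in young libraries. The part of this in the results on the 9 genes was not tested. The cartilage genes Col2a1, at 37.7 to 39.5 RPKM in old and 21.5 to 53.6 RPKM in young, and Sox9, at 15.3 to 17.1 RPKM in old and 12.7 to 19.7 RPKM in young, were expressed and overlapped. In the fit without young replicate 1, 1 of the 7 osteoblast markers was called higher and 5 lower, and both cartilage genes were called lower in old. Over all tested genes that fit called 13.2% higher and 19.4% lower. The leukocyte gene Ptprc and the endothelial gene Cdh5 were at or near 0 throughout. Of the 7 myeloid markers with values only Lyz2 passed the expression filter, and the 7 together summed to 8.57 to 10.0 RPKM in old and 7.98 to 9.27 RPKM in young libraries. Young replicate 1 stood apart: its Pearson correlation with young replicates 2 and 3 across genes was 0.949 and 0.962, against 0.996 between those 2 libraries and 0.995 to 0.997 among old libraries (genes are not independent replicates). The results on the 9 genes are therefore given with and without it. In bulk RNA, fewer cells that express a gene and less of its RNA per cell cannot be told apart.

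In many immediate-early genes, elements near the start site that bind SRF or CREB are known to respond to such stimuli. Windows before RefSeq start sites on build GRCm38.p6 were searched for 6 of the 9 genes: Dusp1, Egr2, Ier3, Klf4, Nr4a1 and Zfp36. Egr1, Ier2 and Myc were not searched, so the motif counts and the choice of windows shown leave them out. The windows shown hold the 250 bases before a start site, 5′ to 3′ on the strand of the gene. Dusp1 and Nr4a1 were chosen because they had a like pattern across libraries, described further on, so their motifs are no test of that pattern, and Egr2 and Zfp36 because each holds a CArG box, the element bound by SRF. Capitals mark TGACG on either strand, read as CGTCA where it lies on the other one (the shorter form of the CRE, the element bound by CREB), the whole CRE TGACGTCA that contains it, and the CArG box.
Dusp1, chr17:26508473-26508722, minus strand: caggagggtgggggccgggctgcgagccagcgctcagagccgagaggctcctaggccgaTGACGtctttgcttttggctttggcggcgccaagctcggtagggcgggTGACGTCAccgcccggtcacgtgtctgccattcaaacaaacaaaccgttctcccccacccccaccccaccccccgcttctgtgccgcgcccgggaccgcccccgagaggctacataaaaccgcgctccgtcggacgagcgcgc
Nr4a1, chr15:101266596-101266845, plus strand: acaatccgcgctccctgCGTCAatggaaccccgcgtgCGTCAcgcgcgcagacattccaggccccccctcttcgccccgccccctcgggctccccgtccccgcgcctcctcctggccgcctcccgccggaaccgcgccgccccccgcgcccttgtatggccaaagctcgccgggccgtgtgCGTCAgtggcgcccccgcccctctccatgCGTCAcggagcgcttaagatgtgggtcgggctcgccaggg
Egr2, chr10:67537619-67537868, plus strand: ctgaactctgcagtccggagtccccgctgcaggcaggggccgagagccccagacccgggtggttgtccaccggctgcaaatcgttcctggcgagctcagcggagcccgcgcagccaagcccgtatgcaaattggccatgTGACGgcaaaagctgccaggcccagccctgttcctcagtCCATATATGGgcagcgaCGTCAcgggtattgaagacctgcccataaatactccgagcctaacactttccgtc
Zfp36, chr7:28379229-28379478, minus strand: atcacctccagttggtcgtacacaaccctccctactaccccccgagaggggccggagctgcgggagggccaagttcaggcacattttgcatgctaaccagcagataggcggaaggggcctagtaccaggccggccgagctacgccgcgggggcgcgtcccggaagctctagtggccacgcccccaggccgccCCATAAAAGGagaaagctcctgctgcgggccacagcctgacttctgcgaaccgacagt
Dusp1 has 3 matches to TGACG, of which 2 are the same palindrome read on both strands, the whole CRE that begins 143 bases before the start site, and Nr4a1 has 4 matches, which begin 233, 213, 69 and 40 bases before it. The TGACG motif was found in 17.8% of 32851 promoter windows of this length, the whole CRE (TGACGTCA, the same on both strands) in 1.55% and the CArG box in 1.47%. Of 5 windows listed for Egr2, the one shown holds a CArG box 72 bases and TGACG motifs 111 and 55 bases before the start site. These matches depend on the start site used. The window that begins at 67535249 holds neither motif, and the one that begins at 67537316 holds a CArG box but no TGACG. Zfp36 holds a CArG box 58 bases before its start site and no TGACG. Klf4 holds 1 TGACG, and Ier3 holds neither TGACG nor a CArG box. The search on both strands for the binding site of EGR proteins, GCGNGGGCG, found 1 match each in Nr4a1 and Zfp36 and 2 in Klf4 (4.7% of all windows), left in lower case here, and the AP-1 site TGANTCA was in none of these windows (6.75% of all windows). TATAA on the strand of the gene was in the windows of Klf4 and Ier3 and in 1 of those listed for Egr2 (16.0% of all windows). A match is only a run of letters, and the binding of factors was not measured.

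In old libraries Egr1, Ier2 and Zfp36 lay below every young library, Ier3, Klf4 and Myc lay above every young library, and Dusp1, Nr4a1 and Egr2 overlapped. Limma, the test used across genes, called 0 of the 9 at an adjusted p under 0.05 (Benjamini-Hochberg over all 12015 genes that reached 1 RPKM in at least 3 libraries), where 1.57% of tested genes were called, 177 higher and 12 lower in old. Limma's voom on recovered reads also called 0 of the 9, and 5 of the 9 had an unadjusted p under 0.05, against 11.2% of tested genes. With length and GC trends taken out, a setting added once the data were seen, 220 genes (1.89%) were called higher and 46 (0.395%) lower, again with 0 of the 9. Groups did not overlap for 6 of the 9, against 20.8% of tested genes (10.6% with old above young and 10.2% with old below). Each of the 9 reached 1 RPKM in all 6 libraries, so none entered the test through a single group. The median log2 fold change of the 9 was -0.25, against 0.0055 for all tested genes, on the log2(RPKM + 1) scale used for every fold change here, old minus young. That median depends on which of the 9 are kept, since their directions were mixed. With a filter at a mean of 5 RPKM, which leaves out Dusp1 and Zfp36, both lower in old on average, it was 0.16. With 3 libraries a group, a missed call at differences of this size does not show that the groups were level.

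**Figure D1:**
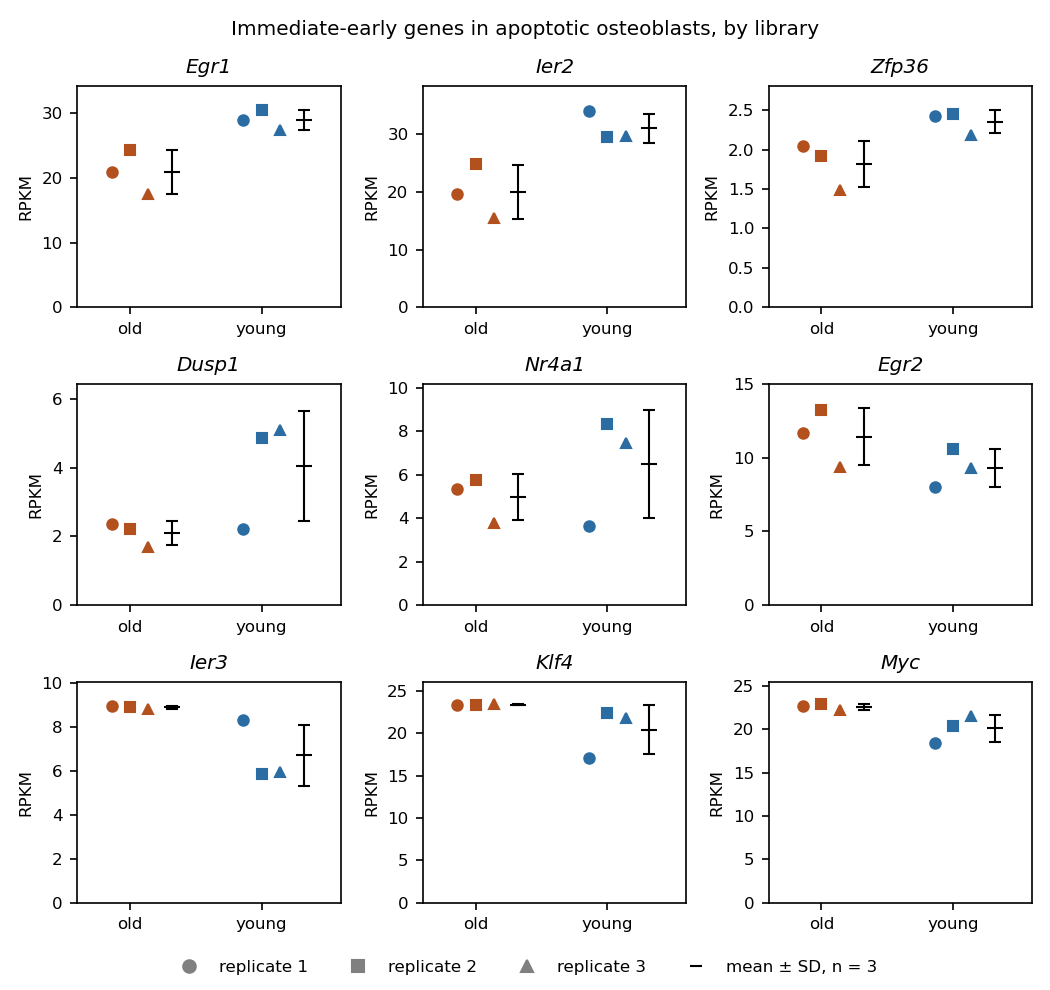
RPKM of the 9 immediate-early genes in each library (vertical axis, from 0), with old on the left and young on the right of each panel; marker shape gives the replicate, and the bar the mean ± SD (n = 3). Egr1, Ier2 and Zfp36 are lower in every old library, and for Dusp1 and Nr4a1 young replicate 1 lies beside the old libraries, at 2.21 and 3.64 RPKM.

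Without young replicate 1, limma called 5 of the 9: Ier3 was higher, and Dusp1, Nr4a1, Egr1 and Ier2 were lower in old. That library moved the whole comparison, since without it 13.2% of tested genes were called higher and 19.4% lower in old, 1589 and 2329 genes. Groups did not overlap for 8 of the 9, Egr2 being the exception, against 62.5% of tested genes. The calls of the 5 genes rest on 3 old and 2 young libraries. Mitochondrially encoded genes took 1.62 to 1.89% of reads in old libraries, 1.05% in young replicate 1, and 2.13% and 2.29% in young replicates 2 and 3. The part of RNA quality in these results was not tested.

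**Figure D2:**
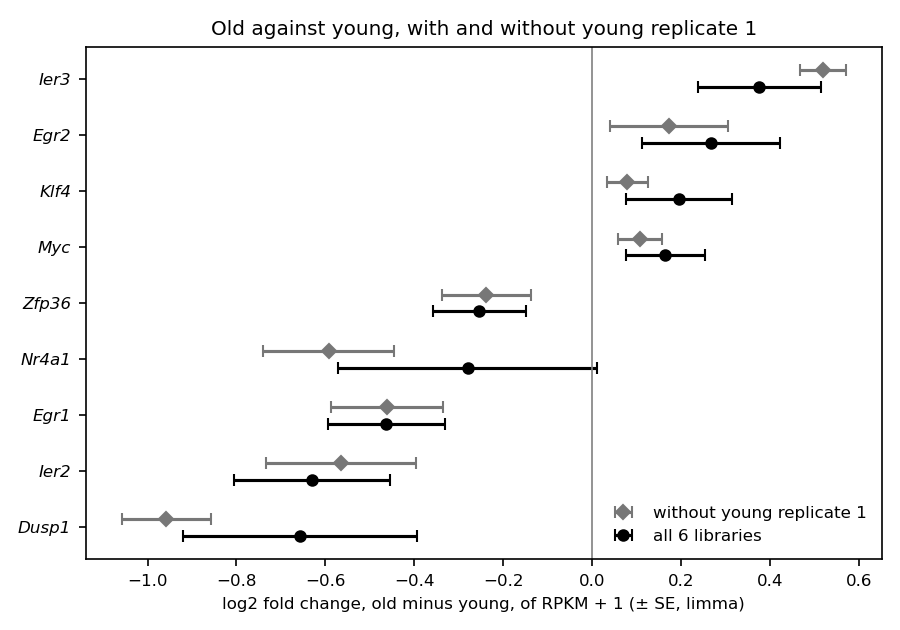
Log2 fold change of each gene, old minus young, on the log2(RPKM + 1) scale (horizontal axis, ± SE from limma), with all 6 libraries (circles) and without young replicate 1 (diamonds). Without that library Dusp1 is at -0.96 in place of -0.66 and Nr4a1 at -0.59 in place of -0.28, while Egr1 is at -0.46 in both fits.

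Among the zinc finger factors, Egr1 lay below young in every old library, while its paralog Egr2 overlapped between the groups. Egr1, which switches on growth and repair genes after many stimuli (chromosome 18, 34859823 to 34864984 on build mm10), stood at 20.9, 24.3 and 17.5 RPKM in old and 29.0, 30.4 and 27.5 RPKM in young libraries. Every old value lay below every young one, and young replicate 1 sat among its own group. The log2 fold change was -0.46 ± 0.13 (SE, limma adjusted p = 0.239), and without young replicate 1 it was again -0.46 ± 0.13 (SE, limma adjusted p = 0.0341). Egr2, required in mice for hindbrain patterning and peripheral myelination (chromosome 10, 67535475 to 67542188), was at 11.6, 13.2 and 9.38 RPKM in old and 7.98, 10.6 and 9.31 RPKM in young libraries. The groups overlapped, and the log2 fold change was 0.27 ± 0.16 (SE, limma adjusted p = 0.680), or 0.17 ± 0.13 without young replicate 1 (SE, limma adjusted p = 0.341). The 95% interval of the log2 fold change ran from -0.78 to -0.14 for Egr1 and from -0.11 to 0.64 for Egr2.

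The ratio of Egr1 to Egr2 within a library, which no scaling between libraries can alter, separated the groups. It was 1.80, 1.83 and 1.87 in old libraries and 3.63, 2.87 and 2.95 in young ones. The old libraries stayed within a narrow range by this ratio, although Egr1 itself ranged from 17.5 to 24.3 RPKM among them. The other paralogs, Egr3 and Egr4, were under 1 RPKM in every library and were not tested. Of the 36 ratios between pairs of the 9 genes, 17 had groups that did not overlap. Part of this was fixed in advance. Ratios of Egr1, Ier2 or Zfp36 with Ier3, Klf4 or Myc could not overlap, as these genes lay on opposite sides of young. The share among ratios of other tested genes was not computed. The ratio of Egr1 to Egr2 was singled out after its values were seen, as the one between paralogs.

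Klf4, a zinc finger factor known from reprogramming to pluripotency (chromosome 4, 55527143 to 55532466), had the highest mean level of the 9 in old libraries. It was at 23.3, 23.3 and 23.4 RPKM in old and 17.1, 22.3 and 21.8 RPKM in young libraries. The groups did not overlap, but young replicates 2 and 3 came close to the old libraries, which had 1.06 times their mean. Its log2 fold change was 0.19 ± 0.12 (SE, limma adjusted p = 0.703), and 0.078 ± 0.046 without young replicate 1 (SE, limma adjusted p = 0.227). Klf2, a relative of Klf4 with roles in endothelium and T cells, was at 2.00, 2.83 and 1.62 RPKM in old and 4.59, 3.89 and 4.51 RPKM in young libraries. Every old value of Klf2 lay below every young one, and the log2 fold change was -0.77 ± 0.16 (SE, limma adjusted p = 0.0927).

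Myc, a basic helix-loop-helix factor that drives growth and ribosome production (chromosome 15, 61985391 to 61990374), differed little between the groups. It was at 22.6, 22.9 and 22.3 RPKM in old and 18.5, 20.4 and 21.5 RPKM in young libraries. Groups did not overlap, but the gap was small: the log2 fold change was 0.16 ± 0.089 (SE, limma adjusted p = 0.637), and its 95% interval ran from -0.053 to 0.38. Without young replicate 1 the log2 fold change was 0.11 ± 0.050 (SE, limma adjusted p = 0.143).

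Genes that work with MYC were likewise not called. Of 10 tested partners and antagonists, limma called 0, voom on recovered reads 0, and 0 had an unadjusted p under 0.05 or groups that did not overlap. Those of smallest p were Mxd3 at -0.14, Zbtb17 at 0.18 and Mlx at 0.093 in log2 fold change. Without young replicate 1, 0 of the 10 were called higher and 4 lower. Of 19 tested MYC target genes limma called 0 and voom 0, 4 had an unadjusted p under 0.05, and 6 lay above young in every old library, with a median log2 fold change of 0.20. The ribosome assembly genes Rrp9 and Nolc1 were at 36.6 ± 1.41 and 257 ± 9.88 RPKM in old, against 28.7 ± 2.02 and 204 ± 9.27 RPKM in young (SD, n = 3 each). Ldha, a lactate dehydrogenase gene, was at 119 ± 1.13 RPKM in old and 93.5 ± 8.08 RPKM in young (SD, n = 3 each). With young replicate 1 left out, 11 of these 19 were called higher and 0 lower. Over all tested genes 11.2% had an unadjusted p under 0.05, 10.6% lay above young in every old library, and without young replicate 1 13.2% were called higher and 19.4% lower, shares against which the counts of the other lists stand as well.

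Nr4a1 and Dusp1 shared a pattern in which young replicate 1 lay with the old libraries. The pattern is not taken as particular to them, because that library changed the overlap of groups in many genes. Groups did not overlap for 20.8% of tested genes with it and 62.5% without it, though 1 library fewer also makes overlap rarer. Nr4a1, an orphan nuclear receptor (chromosome 15, 101266846 to 101274792), was at 5.35, 5.76 and 3.78 RPKM in old and 3.64, 8.35 and 7.46 RPKM in young libraries. Young replicate 1 was the lowest of all 6, at 0.461 times the mean of the other young libraries. The log2 fold change was -0.28 ± 0.29 (SE, limma adjusted p = 0.901), and -0.59 ± 0.15 without that library (SE, limma adjusted p = 0.0257). Dusp1, whose product switches off p38, JNK and ERK in the nucleus (chromosome 17, 26505590 to 26508519), was at 2.35, 2.23 and 1.70 RPKM in old and 2.21, 4.87 and 5.10 RPKM in young libraries. Young replicate 1 lay inside the old range, at 0.443 times the mean of the other young libraries. For Dusp1 the log2 fold change was -0.66 ± 0.26 (SE, limma adjusted p = 0.425), and -0.96 ± 0.10 without young replicate 1 (SE, limma adjusted p = 0.00172).

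The ratio of Nr4a1 to Dusp1 varied less among the young libraries than either gene did, and its groups did not overlap. It was 2.27, 2.59 and 2.22 in old libraries, against 1.65, 1.71 and 1.46 in young ones. By this ratio, singled out after its values were seen, young replicate 1 lay inside the young range. The relative Nr4a2 was at 1.25, 1.29 and 1.34 RPKM in old and 1.21, 1.92 and 2.06 RPKM in young libraries. Young replicate 1 lay at the old level there too, and Nr4a3 was under 1 RPKM throughout.

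**Figure D3:**
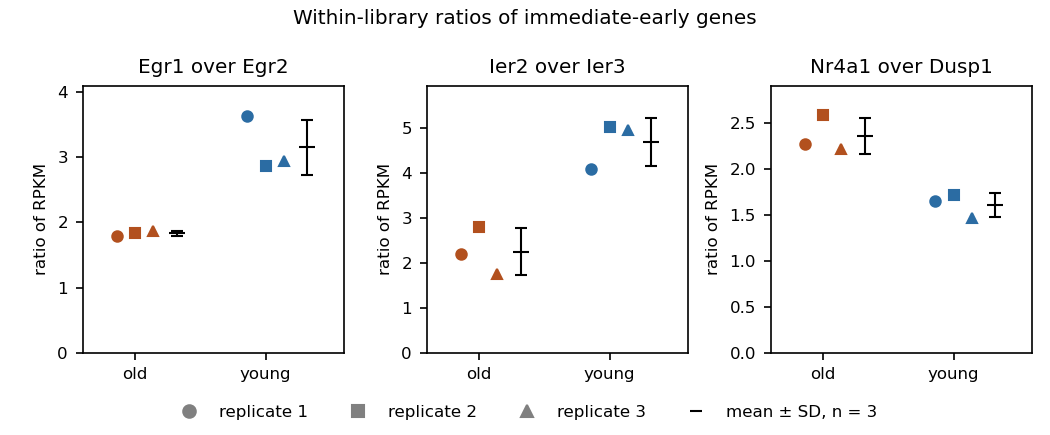
Ratio of RPKM between 2 genes of the same library (vertical axes, from 0) for Egr1 over Egr2, Ier2 over Ier3 and Nr4a1 over Dusp1, old on the left and young on the right, with the mean ± SD (n = 3). Groups do not overlap in any of the 3 panels, and Egr1 over Egr2 is 1.80 to 1.87 in old and 2.87 to 3.63 in young libraries. For Ier2 over Ier3 this is fixed by the genes themselves, which lie on opposite sides of young.

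Ier2 and Ier3, both named for an immediate early response, lay on opposite sides of young, Ier2 below and Ier3 above in every old library. Ier2, a short nuclear protein induced by growth factors (chromosome 8, 84661331 to 84662852), was at 19.7, 24.8 and 15.4 RPKM in old and 33.9, 29.4 and 29.7 RPKM in young libraries. Every old value was below every young one, and young replicate 1 was the highest of all. The log2 fold change was -0.63 ± 0.18 (SE, limma adjusted p = 0.221), and -0.57 ± 0.17 without young replicate 1 (SE, limma adjusted p = 0.0433). Ier3, a stress-induced protein that modulates cell death (chromosome 17, 35821684 to 35822923), was at 8.97, 8.91 and 8.83 RPKM in old and 8.31, 5.86 and 5.97 RPKM in young libraries. Here young replicate 1 lay near the old values, at 1.41 times the mean of the other young libraries. Its log2 fold change was 0.38 ± 0.14 (SE, limma adjusted p = 0.378), and 0.52 ± 0.051 without that library (SE, limma adjusted p = 0.00131). The ratio of Ier2 to Ier3 was 2.20, 2.79 and 1.75 in old and 4.08, 5.03 and 4.97 in young libraries. Its groups could not overlap, since Ier2 lay below and Ier3 above young in every old library. The ratio is thus no separate result.

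Zfp36, which binds AU-rich elements and recruits the deadenylation machinery (chromosome 7, 28376784 to 28380253), had the lowest mean RPKM of the 9 in both groups. It was at 2.05, 1.92 and 1.49 RPKM in old and 2.43, 2.45 and 2.18 RPKM in young libraries. Every old value lay below every young one, and young replicate 1 was level with its group. The log2 fold change was -0.25 ± 0.10 (SE, limma adjusted p = 0.439), and -0.24 ± 0.099 without young replicate 1 (SE, limma adjusted p = 0.107). The listed length, 3470 bases, equals the whole span of the gene, so its RPKM counts any intron as exon, and the predicted gene Gm44710 overlaps it on the opposite strand. Whether reads were counted by strand is not stated, so its value is uncertain. In recovered reads, not scaled by length, Zfp36 had 600, 503 and 418 in old libraries, against 536, 453 and 371 for Dusp1. In young libraries it had 546, 660 and 628, against 386, 1019 and 1140 for Dusp1.

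Of the relatives of Zfp36, which bind the same RNA elements, Zfp36l2 rose, to 28.5, 26.0 and 27.4 RPKM in old, against 18.1, 18.3 and 16.2 RPKM in young libraries. Its log2 fold change was 0.61 ± 0.090 (SE, limma adjusted p = 0.0332). Zfp36l1 overlapped between groups, at 12.8 ± 1.23 RPKM in old and 13.1 ± 1.00 RPKM in young (SD, n = 3 each). By level, both relatives stood above Zfp36 in every library on the RPKM scale. Of 12 tested messenger RNAs known as ZFP36 targets, a list that holds Ier3 and Myc as well, 5 were called higher in old and 0 lower. The called ones encode the chemokines Ccl2 and Cxcl1, the cytokines Il6 and Lif, and the prostaglandin synthase Ptgs2. Cxcl1, Il6 and Lif reached 1 RPKM in old libraries only, so the filter itself fixed their direction. Of the other 9, limma called 2 higher (1.47% of all tested genes) and 0 lower, and 8 had every old value above young (10.6% of all tested genes), with a median of 0.38 in log2 fold change. Ccl2 was at 22.0, 21.4 and 25.6 RPKM in old and 6.47, 3.96 and 4.02 RPKM in young libraries. Ptgs2 was at 4.15 ± 0.576 RPKM in old and 1.22 ± 0.282 RPKM in young (SD, n = 3 each). In the 5 libraries without young replicate 1, 7 of these 9 were called higher (13.2% of all tested genes) and 0 lower.

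Other MAP kinase phosphatase genes were not called either. Of 11 tested phosphatases and feedback inhibitors of the pathway, limma called 0 and voom on recovered reads 0. Dusp4 reached 1 RPKM in old libraries only, so the filter fixed its direction, and it is left out of the counts that follow. Of the other 10, 3 had an unadjusted p under 0.05 (11.2% of all tested genes), 4 lay above young in every old library (10.6% of all tested genes) and 0 lay below. The phosphatase genes Dusp7, Dusp14 and Dusp16 were among those that overlapped. Dusp6, which acts on ERK in the cytoplasm, was at 13.3, 13.3 and 12.7 RPKM in old and 10.6, 7.33 and 7.96 RPKM in young libraries. Dusp4, a nuclear phosphatase, was at 1.29 ± 0.122 RPKM in old and 0.705 ± 0.0915 RPKM in young (SD, n = 3 each). Dusp5, a nuclear phosphatase of ERK, was at 1.84 ± 0.110 RPKM in old and 1.01 ± 0.360 RPKM in young (SD, n = 3 each). Without young replicate 1, 3 of the 10 were called higher (13.2% of all tested genes) and 0 lower, Dusp5, Dusp6 and Dusp10.

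**Figure D4:**
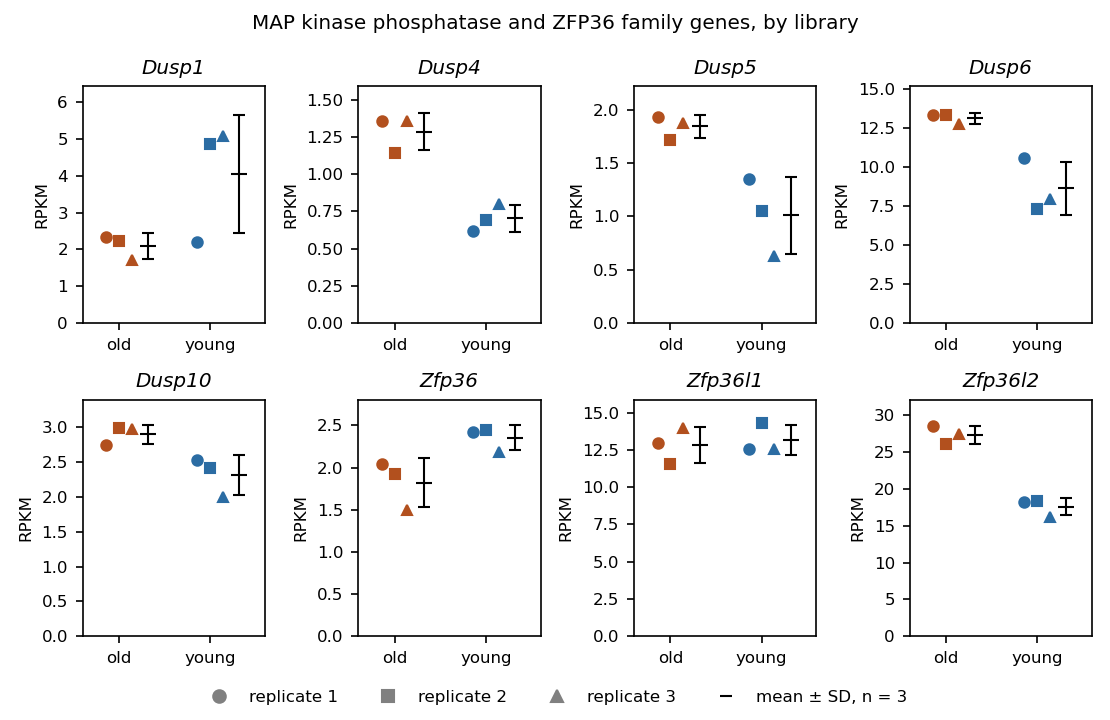
RPKM of Dusp1 with Dusp4, Dusp5, Dusp6 and Dusp10, and of Zfp36 with Zfp36l1 and Zfp36l2, in each library (vertical axes, from 0), old on the left and young on the right, with the mean ± SD (n = 3). The 4 other phosphatase genes shown are above young in every old library, Dusp4 having passed the filter through old libraries only. Of the tested phosphatase genes not shown, Dusp3 also lay above young, while Dusp7, Dusp14 and Dusp16 overlapped. Zfp36l2 is at 27.3 RPKM in old against 17.6 RPKM in young on average, while Zfp36 is at 1.82 against 2.35 RPKM.

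The kinases and factors upstream of immediate-early genes showed no call. Of 28 tested genes of the ERK, SRF and CREB path, limma called 0 and voom 0, 1 had an unadjusted p under 0.05, and the median log2 fold change was 0.011. Map2k1, a kinase that activates ERK, was at 9.25, 8.25 and 8.78 RPKM in old and 3.77, 7.37 and 6.70 RPKM in young libraries, with young replicate 1 the lowest (limma adjusted p = 0.445). Rps6ka4, a nuclear kinase downstream of ERK and p38, was at 13.4 ± 0.348 RPKM in old and 11.6 ± 0.794 RPKM in young, and Mapk9, the gene of JNK2, at 6.51 ± 0.185 RPKM in old and 7.34 ± 0.283 RPKM in young (SD, n = 3 each). With young replicate 1 left out, 2 of the 28 were called higher and 8 lower. Among 9 tested corepressors and targets of EGR1, limma called 0 and voom 0, and 4 had an unadjusted p under 0.05. Id3, an inhibitor of helix-loop-helix factors, was at 12.2 ± 0.905 RPKM in old and 16.9 ± 2.21 RPKM in young, and F3, the tissue factor gene, at 41.4 ± 3.53 RPKM in old and 32.8 ± 3.88 RPKM in young (SD, n = 3 each). Tgfb1, a growth factor stored in bone matrix, was at 5.10 ± 0.283 RPKM in old and 4.13 ± 0.350 RPKM in young (SD, n = 3 each). In the 5 libraries without young replicate 1, 3 of these 9 were called higher and 1 lower.

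AP-1 genes, the nearest group by function, were also split. Of 8 tested, 3 lay above and 3 below young in every old library, against 10.6% and 10.2% of all tested genes. Limma called only Fosl1, higher by a log2 difference of 2.07 ± 0.17 (SE, limma adjusted p = 0.00265). Over all tested genes 1.47% were called higher. Fosl1, the FRA-1 gene, was at 30.5, 33.0 and 35.5 RPKM in old and 5.31, 8.45 and 7.92 RPKM in young libraries. Fosb, named after its values were seen, was at 1.35, 1.20 and 0.875 RPKM in old and 1.37, 4.62 and 4.16 RPKM in young libraries. As in Dusp1 and Nr4a1, young replicate 1 lay at the old level in Fosb. Fos, also named after its values were seen, differed in this. It was at 19.1, 18.9 and 11.3 RPKM in old and 27.5, 54.3 and 51.3 RPKM in young libraries. There young replicate 1 was the lowest young library but above every old one, and the log2 fold change was -1.36 ± 0.32 (SE, limma adjusted p = 0.142). Without young replicate 1, 3 of the 8 AP-1 genes were called higher and 3 lower in old (13.2% and 19.4% of all tested genes). Of 35 other tested rapid-response genes 4 were called, each higher in old (1.47% of all tested genes): Ptgs2, Phlda1, Maff and Zfp36l2. Of the 35, 13 lay above and 3 below young in every old library (10.6% and 10.2% of all tested genes). Their median log2 fold change was 0.12. Maff, a small MAF factor, was at 9.59 ± 0.520 RPKM in old and 3.73 ± 1.09 RPKM in young, and Phlda1, a pleckstrin-homology protein, at 11.5 ± 0.409 RPKM in old and 6.80 ± 0.482 RPKM in young (SD, n = 3 each). With young replicate 1 left out, 12 of the 35 were called higher and 3 lower (13.2% and 19.4% of all tested genes).

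**Figure D5:**
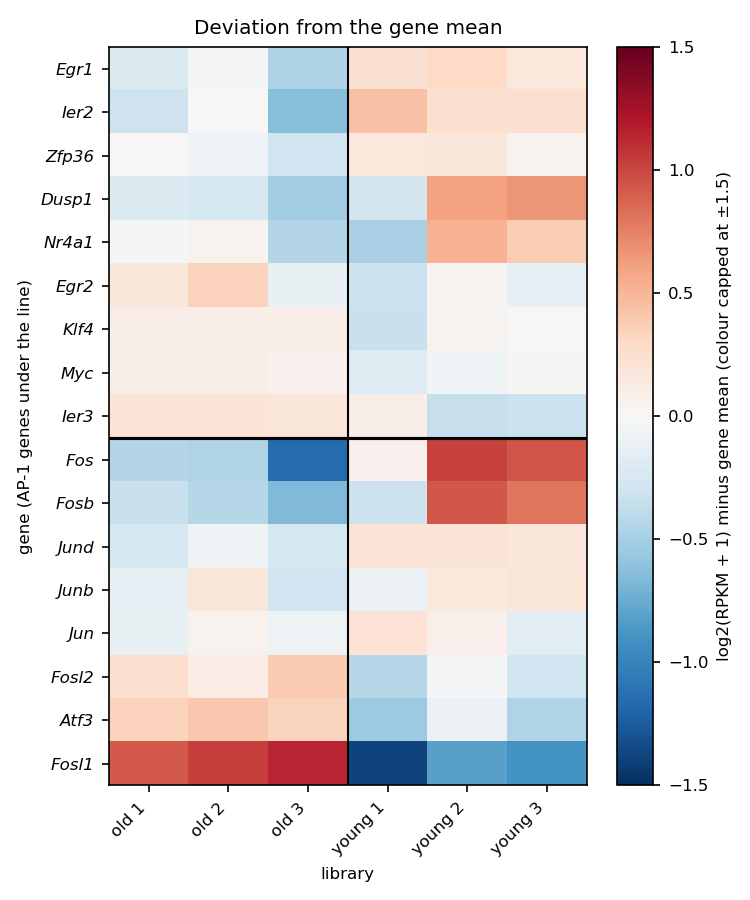
Colour gives log2(RPKM + 1) minus the mean of the gene over the 6 libraries (columns, old on the left), for the 9 immediate-early genes and, under the line, the 8 tested AP-1 genes (rows). Dusp1, Nr4a1, Fos and Fosb are highest in young replicates 2 and 3, and old replicate 3 is the lowest old library in 8 of the 9.

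By RPKM, which depends on the listed gene lengths, the 9 genes stood in a different order in the 2 groups. In old libraries the order of mean RPKM was Klf4 (23.3), Myc, Egr1, Ier2, Egr2, Ier3, Nr4a1, Dusp1 and Zfp36 (1.82). There Myc and Egr1, Egr1 and Ier2, and Dusp1 and Zfp36 overlapped, while the other neighbours did not. In young libraries it was Ier2 (31.0), Egr1, Klf4, Myc, Egr2, Ier3, Nr4a1, Dusp1 and Zfp36 (2.35). Young neighbours overlapped except Egr1 with Klf4 and Myc with Egr2. Ier2 and Egr1 thus stood above Klf4 in every young library, whereas in old libraries Egr1 and Klf4 overlapped.

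Most of the 9 had the same lowest old library, but the size of the variation among old libraries differed. Old replicate 3 was the lowest old library in 8 of the 9 (88.9%), against 30.3% of all tested genes, and the exception was Klf4. In Myc and Ier3 it was lowest by little, at 22.3 RPKM against 22.6 and 22.9, and at 8.83 RPKM against 8.97 and 8.91. The SD among old libraries was 4.71 RPKM for Ier2 and 3.40 RPKM for Egr1, against 0.0465 RPKM for Klf4 and 0.0742 RPKM for Ier3. Young replicate 1 was the lowest young library in 5 of the 9 (55.6%), against 57.2% of all tested genes.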

How the data were processed

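RNA of killed osteoblasts was measured by sequencing in 3 old and 3 young libraries, grouped by the labels. The authors deposited 1 table of RPKM per gene and library with gene lengths. The submitters' processing notes name fastp, STAR, HTSeq, edgeR and mm10, without versions, and the sources used here give neither annotation release nor strand setting. The deposited RPKM were not altered. RPKM scaled by gene length gave whole reads (within 0.01) for 100% of values, and even numbers prevailed, so reads are not independent molecules and depth covers counting error only.

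Genes with at least 1 RPKM in at least 3 libraries (12015) were tested as log2(RPKM + 1) with limma 3.58.1 in R 4.3.3, by group alone, with a variance trend and Benjamini-Hochberg adjustment over all of them. The threshold was an adjusted p of 0.05. The fit was tested on simulated data. Alternatives covered pseudocounts, filters, scaling, moderation, library weights, the replicate number as a block, voom on recovered reads (163 genes called higher and 8 lower in old), length and GC trends, and leaving out each library. Promoter windows came from RefSeq, gene positions from the deposited table, and GC content from GENCODE vM21 transcripts.

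Members and lists were chosen with earlier results of these data known. Besides the 9 genes, the text names the genes of each list that were called or had the smallest p, family members of the 9, and genes said to be chosen after their values were seen. List genes with no row under the listed symbol were not used here.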

Additional observations from a re-analysis of the deposited data

How the results depend on the processing

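No direction of the 9 genes reversed under any alternative run, 20 per gene and 19 for Dusp1 and Zfp36. Among these alternatives, genes of the 9 were called only without young replicate 1 and with library weights, and both called Ier3 higher and Dusp1, Nr4a1, Egr1 and Ier2 lower in old. Library weights give less weight to a library that departs from its group, as young replicate 1 did, so the 2 settings are not independent. With library weights 2119 genes were called higher and 2957 lower in old, with 1 and 4 of the 9 among them. A filter at a mean of 5 RPKM gave 99 higher calls and a median of 0.16 for the members it kept. Removal of the length trend gave 44 lower calls, removal of length and GC trends 46, and an adjusted p under 0.1 gave 62. With the replicate number as a block, 82 genes were called higher and 0 lower, and none of the 9. Deviations of same-numbered old and young libraries correlated at -0.0257, -0.436 and 0.329 for replicates 1, 2 and 3, and not every library correlated best with its own number, so the numbers were not taken to pair the libraries. Leaving out each library in turn gave 80 to 1589 higher and 0 to 2329 lower calls, 0 to 1 higher and 0 to 4 lower of the 9, and a median of the 9 from -0.31 to -0.089, the last without young replicate 2. The cause of these shifts was not tested. With 3 libraries a group, differences of the size of Klf4 and Myc were within the error of the test.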

Other observations

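Genes around KLF4 and the stress response completed the lists examined. Of 5 tested partners and targets of KLF4, limma called 0 and voom on recovered reads 0, 4 had an unadjusted p under 0.05 (11.2% of all tested genes), and 4 lay above and 1 below young in every old library (10.6% and 10.2% of all tested genes). Without young replicate 1, 3 of the 5 were called higher and 1 lower in old. Tagln, a smooth muscle actin-binding protein, was at 102 ± 5.42 RPKM in old and 82.4 ± 4.29 RPKM in young, and Ccnd1, cyclin D1, at 16.5 ± 0.720 RPKM in old and 10.6 ± 3.11 RPKM in young (SD, n = 3 each). Of 8 tested heat shock and oxidative stress genes, limma called 2, both higher in old (1.47% of all tested genes). Without young replicate 1 it called 4 of the 8 higher and 0 lower (13.2% and 19.4% of all tested genes). Hmox1, which breaks down haem, was at 65.8 ± 4.02 RPKM in old and 20.8 ± 2.38 RPKM in young, and Nqo1, a quinone reductase, at 41.9 ± 3.20 RPKM in old and 10.6 ± 2.63 RPKM in young (SD, n = 3 each).

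The genes whose pattern over the 6 libraries was most like the mean pattern of the 9 were Zfp319, Ctdspl, Zfp706, Plin3 and Endov, with a mean absolute difference of 0.0357 to 0.0439 on the centred log2 scale. Of the 9 themselves Zfp36 was nearest to that mean, at 0.083, and Ier3 and Dusp1 farthest, at 0.317 and 0.323.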
